A study of Triticum aestivum with 12 samples.

Results

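The short arm of wheat chromosome 3D, 3DS, was represented by 1069 genes, which were all identifiers beginning with Traes_3DS_ that had at least 10 counts in 3 or more libraries. They were 56.1% of the 1906 identifiers of the arm, and 57598 of the 99386 identifiers of the whole table met the same count rule. By the same rule 1085 of 1859 identifiers of arm 3AS were kept, and 3585 of 5862 of chromosome 3B, whose identifiers do not separate the arms. The arm was singled out because few of its genes changed under drought in LRM-sprayed plants, so its counts of changed genes in that comparison are descriptions of what chose it.

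Leaf polyA RNA of wild-type bread wheat (Triticum aestivum), variety Chinese Spring L42 (WBCDB0017), was sequenced in 12 libraries, 3 in each of 4 groups. Plants in the drought groups received 30 ml of water at each watering and fully irrigated plants received 180 ml, with 2 waterings a week. Each pot held back up to 180 ml. The groups were drought with LRM, drought with water spray, full irrigation with LRM, and full irrigation with water spray. LRM is a biostimulant made from microalgae, sprayed on the leaves at 0.5% on the day after planting and every 14 days from then on, and control plants were sprayed with water. The labels number the libraries within a group without stating whether each came from its own plants. A p-value therefore reflects only the spread among libraries of the same group, part of which can be technical. That spread was estimated over all 4 groups together.

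Bread wheat is a hexaploid that carries the subgenomes A, B and D, and most of its genes exist as homoeologous copies at matching places of the corresponding A, B and D chromosomes. The arms 3AS and 3DS and the short arm of 3B are such counterparts. Homoeologous copies are often nearly identical in sequence, so short reads of one copy can be counted for another, and each value below is uncertain in that respect. Leaves short of water close their stomata under the hormone abscisic acid, raise protective proteins such as dehydrins, and lower much of their photosynthetic gene expression. In bulk leaf RNA, fewer cells of a type and less RNA per cell cannot be told apart.

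The files pair the identifiers with no gene names, and 0 of them matched the reference gene table of the IWGSC CS RefSeq v2.1 assembly. The members are therefore described by level, length, variability and response, and the labelled tissue could not be compared with leaf markers. No member had the same 12 counts as another identifier of any arm.

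Library totals ran from 17541561 counts in drought LRM library 2 to 47305447 in drought water library 3. In the shallowest library 70 of the 1069 members had no count, and in the other libraries 15 to 44 had none. Drought LRM library 2, irrigated LRM library 1 and irrigated water library 1 were known from an earlier look at these data to share a set of co-varying genes, and the counts of called members are also given without them.

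The count rule left members close to its edge. At the threshold, 20 members had a third-highest count of exactly 10, and 23 identifiers left out had one of 9. Just inside, Traes_3DS_659216296 had 101 counts over all libraries and Traes_3DS_3E62674F9 had 98. Just outside, Traes_3DS_CC9498D91 had 105 and Traes_3DS_37F4174C4 had 98. A further 433 identifiers of the arm had no count in any library. Of the members, 747 (69.9%) had at least 10 counts in all 12 libraries, against 75.5% in 3AS, 78.5% in 3B and 76.5% of all genes meeting the rule. The edgeR filter on low counts kept 1058 members for testing and left out 11, so the counts below are of 1058. Of the genes meeting the rule it kept 1066 in 3AS and 3544 in 3B. Values for all tested genes cover the 57226 genes kept in the whole table, of which 279 did not meet the rule.

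Genes of 3DS had low counts and short implied lengths. Their median level was 0.38 log2 CPM (CPM are counts scaled to a common library size, averaged here over the 12 libraries), against 1.08 in 3AS, 1.31 in 3B and 1.22 over all tested genes. This was the lowest median of 41 arms, and the next lowest was 0.82 in 7AS. The lengths implied by the deposited counts and FPKM values had a median of 988 bases in 3DS, against 1354 in 3AS, 1669 in 3B and 1656 over all tested genes. That too was the lowest of 41 arms, below 1302 in 7AS, although the absolute scale of these lengths depends on a read layout not given in the sources used here. In the shortest of 3 equal classes of length, bounded at 1194 bases, lay 59.1% of the tested members.

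Per length, the arm stood slightly low but nearer to the others. The median member had 1.47 FPKM (fragments scaled by length and by library size), against 1.62 in 3AS, 1.60 in 3B and 1.53 over all tested genes. The quartiles were 0.625 and 3.49 FPKM in 3DS, against 0.573 and 4.25 FPKM over all tested genes. The 2 members with the highest mean FPKM had similar levels in all groups. Traes_3DS_4EF0DAA39 had 1663, 1638 and 1657 FPKM in drought LRM leaves, 1725, 1677 and 1767 in drought water leaves, 1740, 1647 and 1703 in irrigated LRM leaves, and 1780, 1895 and 1795 in irrigated water leaves. Traes_3DS_2F6D484B6 had 866, 607 and 645 FPKM in drought LRM leaves, 614, 593 and 630 in drought water leaves, 780, 702 and 665 in irrigated LRM leaves, and 629, 663 and 665 in irrigated water leaves. The libraries of different groups lay close together or overlapped in both genes, and neither was called in any of the 5 comparisons. The 10 members with most counts held 37.8% of all counts of the arm, and the top 100 held 70.0%.

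Taken over all levels, members were also more variable. The edgeR coefficient of variation between replicates, whose median was 0.194 in 3DS, was 0.171 in 3AS, 0.168 in 3B and 0.167 over all tested genes. The 3DS median was the highest of 41 arms, and the next highest was 0.181 in 2DL. The SD of log2 CPM within groups gave the same order, with a median of 0.32 in 3DS, against 0.28 in 3AS, 0.27 in 3B and 0.27 over all tested genes. Low counts vary more as a rule, and over the 41 arms the medians of level and of variability had a Spearman correlation of -0.91 (a description over arms that share all 12 libraries). In 5 equal classes of level, lowest first, the median coefficients of 3DS were 0.404, 0.216, 0.157, 0.132 and 0.119. Those of all tested genes were 0.423, 0.219, 0.160, 0.126 and 0.111. Within classes the members were thus slightly less variable in the lower classes and slightly more in the upper ones. Level was not fully equal within classes. Its medians were -1.50, 0.012, 1.20, 2.39 and 4.01 log2 CPM in 3DS, against -1.54, 0.0015, 1.22, 2.42 and 4.16 over all tested genes.

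**Figure D1:**
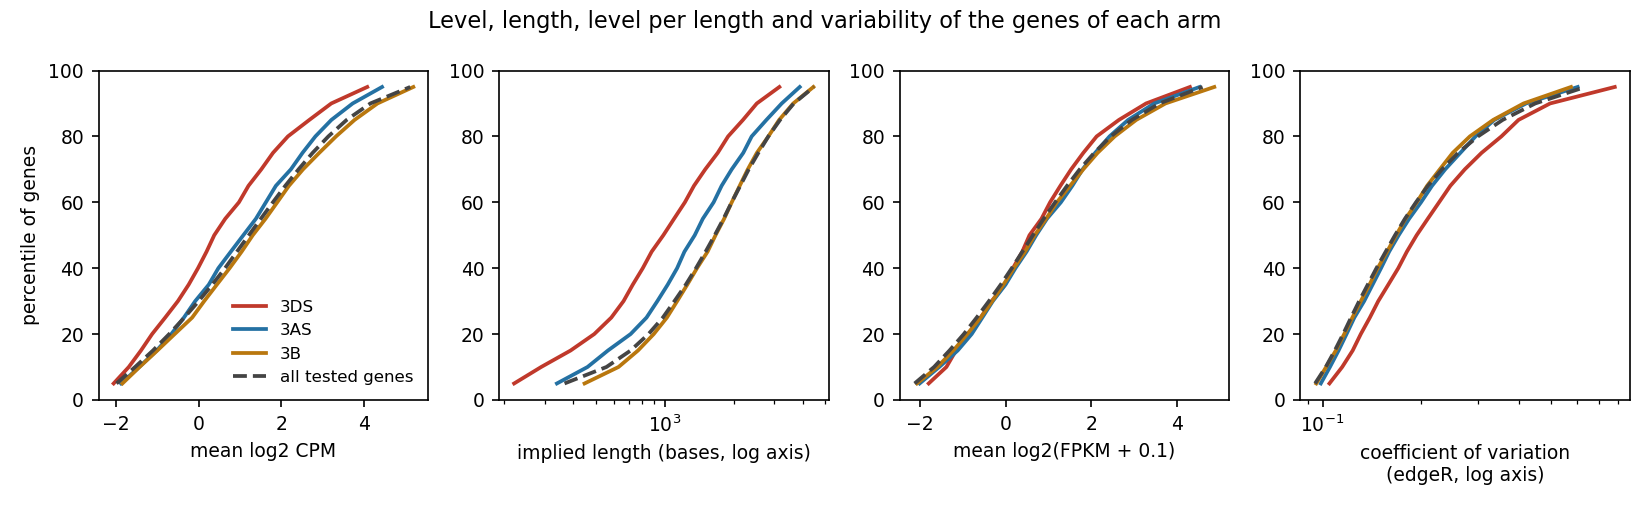
Percentiles of genes (vertical axis) against mean log2 CPM, implied length in bases (log axis), mean log2(FPKM + 0.1) and edgeR coefficient of variation (log axis), for 3DS, 3AS, 3B and all tested genes. The 3DS curve lies to the left for level (median 0.38 against 1.22 log2 CPM for all genes) and length, and to the right for variability, while the curves of level per length run close together.

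The share of each library's counts that fell on 3DS was higher in drought LRM leaves than in the other groups. It was 0.708%, 0.720% and 0.692% in drought LRM leaves, against 0.621%, 0.613% and 0.605% in irrigated LRM leaves. In drought water leaves it was 0.633%, 0.643% and 0.607%, against 0.644%, 0.595% and 0.584% in irrigated water leaves. The LRM groups did not overlap, and the water groups did. The same shares on 3AS had means of 1.01%, 0.914%, 0.887% and 0.890% in drought LRM, drought water, irrigated LRM and irrigated water leaves, and on 3B of 6.97%, 6.63%, 6.50% and 6.53%. The median member did not move with this share: the median deviation of members from their own mean over libraries was 0.01 log2 in drought LRM leaves and 0.00 in irrigated LRM leaves.

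Drought in LRM-sprayed plants asks how leaves that had received the biostimulant changed when water was reduced, and it is the comparison that chose the arm. By edgeR at an adjusted p below 0.05, 111 members were called, 57 higher and 54 lower, which is 10.5% of 1058. The background over all tested genes was 17.2%, with 8.65% higher and 8.6% lower, and the share in 3AS was 14.1% and in 3B 17.6%. The share in 3DS was the lowest of 41 arms and that in 3AS the second lowest, while the highest was 21.2% in 1AL. Scaling to library totals split the calls in 3DS to 78 higher and 27 lower, together 9.92%, against 17.0% of all tested genes. It shifted the median of all genes by 0.16 log2, so only changes relative to that shift are described. Without irrigated LRM library 2, 72 members (6.74%) were called, against 11.5% of all tested genes, and without the 3 libraries named above 93 (8.77%), against 14.1%.

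At an unadjusted p below 0.05, 227 members (21.5%) passed, against 29.5% of all tested genes. The groups of 24.2% of members did not overlap, against 32.8% of all tested genes. The median absolute log2 change was 0.30 in 3DS, 0.30 in 3AS, 0.31 in 3B and 0.31 over all tested genes, and its median standard error was 0.27 in 3DS, against 0.23 in 3AS, 0.23 in 3B and 0.23 over all tested genes. The 111 called members had a median level of 2.03 log2 CPM, a coefficient of variation of 0.140 and an implied length of 1279 bases. The 947 not called had 0.24 log2 CPM, 0.203 and 956 bases. Over all tested genes those called had 2.60 log2 CPM, 0.143 and 1692 bases, and those not called 0.95 log2 CPM, 0.173 and 1647 bases.

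Of the 111 called members 37 differed at least 2-fold, against 3886 of the 9870 called over all tested genes. The named ones are the largest changes among the called members whose higher group had a mean of at least 5 CPM and whose groups did not overlap, 28 higher and 28 lower. Traes_3DS_CBE46365A had 85.5, 101 and 83.3 CPM in drought LRM leaves, against 0.273, 0.463 and 0.378 CPM in irrigated LRM leaves. Its drought LRM libraries were all far above its irrigated LRM libraries, and the log2 change was 7.92 ± 0.57 (SE; adjusted p = 3.32e-06 by edgeR). Traes_3DS_D232D9685 had 130, 88.9 and 77.0 CPM in drought LRM leaves, against 0.573, 0.430 and 0.328 CPM in irrigated LRM leaves, a log2 change of 7.80 ± 0.64 (SE; adjusted p = 4.40e-06 by edgeR). Its groups did not overlap either. In all 3 irrigated LRM libraries together Traes_3DS_CBE46365A had 39 counts and Traes_3DS_D232D9685 had 47.

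Among the lower members of that set the 2 with the largest changes fell by less. The largest fall of all 54 called lower members was 7.01 log2, in a member outside that set. Traes_3DS_072E3F246 had 1.99, 1.72 and 3.15 CPM in drought LRM leaves, against 6.85, 7.67 and 8.77 CPM in irrigated LRM leaves, and fell by 1.72 ± 0.20 on the log2 scale (SE; adjusted p = 6.38e-05 by edgeR). Traes_3DS_5FA3D5EF4 had 15.8, 12.2 and 12.8 CPM in drought LRM leaves, against 37.3, 41.1 and 40.4 CPM in irrigated LRM leaves, and fell by 1.53 ± 0.24 on the log2 scale (SE; adjusted p = 0.000570 by edgeR). All drought LRM libraries of both genes were below all irrigated LRM libraries.

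The 111 members called here were looked up in the separate water-sprayed libraries. They were chosen by their change in LRM-sprayed plants, so a larger median there is partly built in. Of the 57 higher members, 52 (91.2%) were also higher in drought water than in irrigated water leaves, with a median log2 difference of 0.86 in LRM-sprayed and 0.24 in water-sprayed plants. The share over all genes called higher was 90.1%, and their medians were 0.95 in LRM-sprayed and 0.33 in water-sprayed plants. Of the 54 lower members, 45 (83.3%) were lower in the water-sprayed libraries, against 88.1% over all genes called lower. Medians of the 54 were -0.76 in LRM-sprayed and -0.18 in water-sprayed plants, against -0.76 and -0.22 over all genes called lower. In water-sprayed plants 3 of the 57 and 0 of the 54 were called themselves. Over all tested genes 397 of 4949 and 43 of 4921 were.

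Shares called were higher at higher levels in every set. In the lowest, middle and highest of 3 equal classes of level, bounded at 0.22 and 2.21 log2 CPM, 3.33%, 11.3% and 25.7% of members were called, against 7.45%, 14.7% and 29.6% of all tested genes. The 3DS share was below the all-gene share in each class, and 45.5% of members lay in the lowest class, against 19.5% in the highest. In 5 classes the 3DS shares were 2.12%, 7.74%, 11.8%, 14.2% and 31.3%, against 6.44%, 9.75%, 14.3%, 21.3% and 34.4% of all tested genes, lowest class first. All genes carried at the 3DS mix of level would have 14.3% called with 3 classes and 14.1% with 5, which lies between the 17.2% of all genes and the 10.5% of the members. Members reweighted to the level mix of all genes had 13.5% called with 3 classes and 13.4% with 5. At equal level mix the share in 3DS was thus still below that of all genes. Reweighted in the same way, 3AS had 14.5% called with 3 classes and 14.9% with 5, and 3B had 17.2% and 17.0%. A shortfall at equal level mix was thus not particular to 3DS but was also seen in 3AS, and its cause was not tested.

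**Figure D2:**
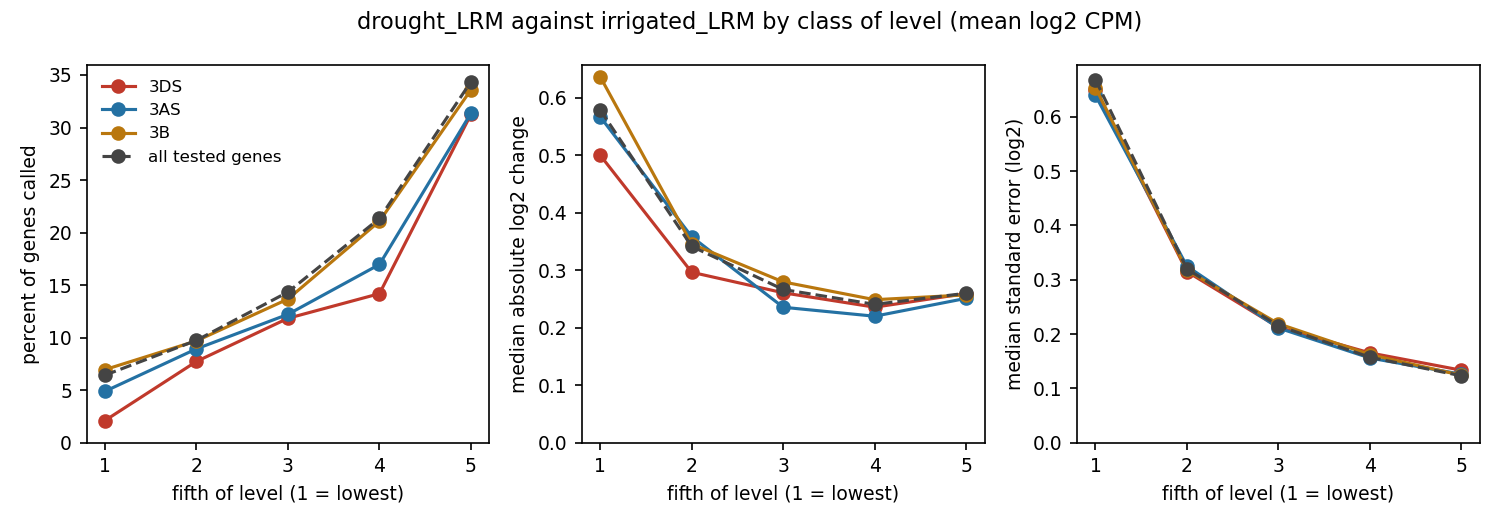
Drought LRM against irrigated LRM leaves by class of level (1 is the lowest of 5 equal classes over all tested genes), showing the percent of genes called, the median absolute log2 change and the median standard error for 3DS, 3AS, 3B and all tested genes. In classes 1 and 2 the 3DS medians of change, 0.50 and 0.30, are below the 0.58 and 0.34 of all genes, and the standard errors nearly coincide.

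By variability the shares were closer to the unweighted ones. In the least, middle and most variable classes of the coefficient of variation, 19.8%, 11.9% and 4.41% of members were called, against 23.0%, 18.5% and 10.3% of all tested genes. All genes at the 3DS mix of these classes would have 16.0% called, and members at the mix of all genes 12%. With 9 combined classes of level and variability the corresponding values were 14.3% and 13.6%. Level per length gave 16.8% and 10.8%, close to the unweighted shares.

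By length the order of 3DS and all genes changed between classes. In the shortest, middle and longest classes 8.00%, 11.3% and 19% of members were called, against 16.1%, 18.6% and 17.1% of all tested genes. The share of members was below that of all genes in the shortest and middle classes and above it in the longest. Classing by length alone, chosen after the short lengths had been seen, gave 16.9% of all genes at the 3DS mix and 12.8% of members at the mix of all genes. Classes of length were also split into 5 classes of level, again chosen after seeing the data. All genes at the 3DS mix then had 14.5% called, above the 10.5% of the members. Members at the mix of all genes had 14.6%, below the 17.2% of all genes. Members of the lowest level class also had the shortest median length, 778 bases, against 1303 bases in that class of all tested genes.

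Over all 41 arms, the share called in this comparison had a Spearman correlation of 0.73 with the median level, -0.66 with the median coefficient of variation and 0.47 with the median length, and 0.71, -0.63 and 0.43 without 3DS. These are descriptions over arms that share all libraries.

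**Figure D3:**
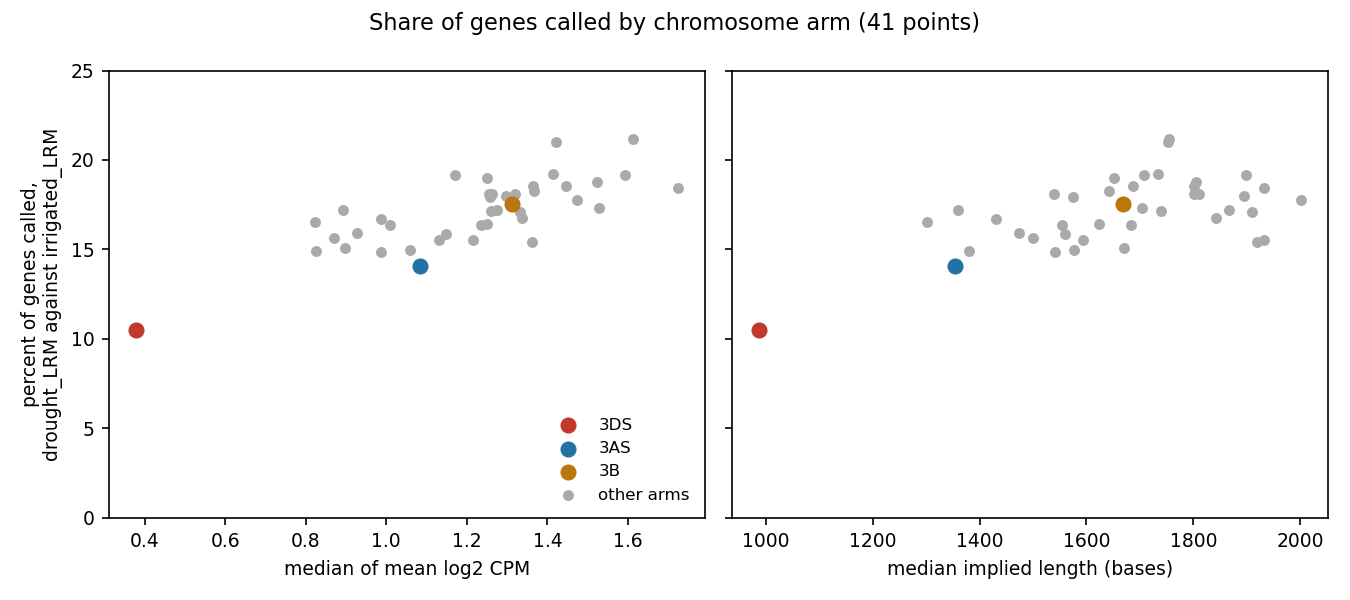
Percent of genes called in drought LRM against irrigated LRM leaves (vertical axis) against the median mean log2 CPM (left) and the median implied length in bases (right), 1 point for each of 41 arms. The point of 3DS lies at the lower left in both panels, at 10.5% called, a median of 0.38 log2 CPM and 988 bases.

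Drought in water-sprayed plants compared libraries that did not choose the arm. The filter and the spread of each gene came from the same fit of all 12 libraries, so it is not an independent look. By edgeR, 4 members were called, all higher, which is 0.378% of 1058 against a background of 0.83% (0.744% higher and 0.0856% lower). In 3AS 0.750% were called and in 3B 1.10%. At an unadjusted p below 0.05, 77 members (7.28%) passed, against 11.4% of all tested genes, 10.6% in 3AS and 12.4% in 3B. The 3DS share was the lowest of 41 arms by that measure. That rank was the same in all 25 alternatives. The share called was less stable and lay above that of all tested genes in 9 of the 25. It was 0.297% against 0.209% when only the 2 groups compared were fitted, and 0.283% against 0.185% without the 3 libraries set apart above, with 3 members called in each case. Without irrigated water library 2 it was 0.469% against 0.185%, and it was also above without drought water library 1 or 2 or irrigated water library 1 or 3. The groups of 14.6% of members did not overlap, against 18.4% of all tested genes.

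The 4 called members, named because the count is small and after their values were seen, were Traes_3DS_CBE46365A, Traes_3DS_D232D9685, Traes_3DS_01821AC73 and Traes_3DS_652B75B8A. Traes_3DS_CBE46365A had 43.0, 24.7 and 7.93 CPM in drought water leaves, against 0.624, 0.632 and 0.388 CPM in irrigated water leaves, a log2 change of 5.49 ± 0.53 (SE; adjusted p = 0.000246 by edgeR). Traes_3DS_D232D9685 had 40.2, 21.7 and 5.94 CPM in drought water leaves, against 0.397, 0.267 and 0.355 CPM in irrigated water leaves, a log2 change of 6.06 ± 0.65 (SE; adjusted p = 0.000390 by edgeR). Their groups did not overlap, and drought water library 3 was the lowest of its group in both. Traes_3DS_01821AC73 had 18.4, 10.01 and 3.45 CPM in drought water leaves, against 0.369, 0.170 and 0.226 CPM in irrigated water leaves, and also 41.4, 44.2 and 36.5 CPM in drought LRM leaves, against 0, 0.529 and 0.353 CPM in irrigated LRM leaves. The groups did not overlap under either spray, its log2 change in water-sprayed plants was 5.38 ± 0.66 (SE; adjusted p = 0.00135 by edgeR), and it was again lowest in library 3.

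Traes_3DS_652B75B8A was of another kind. It had 6.64, 7.43 and 6.14 CPM in drought water leaves, against 3.80, 4.72 and 3.43 CPM in irrigated water leaves, and 8.09, 5.96 and 6.77 CPM in drought LRM leaves, against 6.96, 6.42 and 7.18 CPM in irrigated LRM leaves. The water-sprayed groups did not overlap and the LRM-sprayed groups did, and the log2 change was 0.75 ± 0.15 (SE; adjusted p = 0.0311 by edgeR) in water-sprayed plants and 0.03 ± 0.14 in LRM-sprayed plants. The call was lost in 12 of 25 alternatives, among them each limma fit and the fits without drought LRM library 3, drought water library 1 or 2, irrigated LRM library 1, or irrigated water library 1 or 3. No member was called lower. The smallest p in that direction belonged to Traes_3DS_6839E524D, with 1.22, 1.37 and 1.59 CPM in drought water leaves against 2.44, 2.07 and 2.81 CPM in irrigated water leaves, a log2 difference of -0.80 (edgeR adjusted p = 0.0973).

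LRM against water spray under drought asks what the biostimulant changed in leaves short of water. It shares the drought LRM libraries with the comparison that chose the arm, so it is not an independent look. By edgeR 55 members were called, 27 higher and 28 lower in LRM-sprayed leaves, or 5.20% against a background of 8.49% (4.26% higher and 4.23% lower). The shares in 3AS and 3B were 7.22% and 9.20%. At an unadjusted p below 0.05, 193 members (18.2%) passed, against 22.1% of all tested genes, the second lowest share of 41 arms after 17.9% in 6DS. The groups of 21.1% of members did not overlap, against 27% of all tested genes. The median absolute log2 difference was 0.29 in 3DS and 0.26 over all tested genes. By library totals the split in 3DS was 34 higher and 15 lower, together 4.63%, against 8.08% of all tested genes. The count fell with that of all genes when some single libraries were left out. It was 27 (2.54%, against 4.79% of all tested genes) without drought LRM library 1, 24 (2.26%, against 4.37%) without drought water library 2 and 15 (1.41%, against 2.91%) without drought water library 3. Without the 3 libraries set apart above, 69 members were called, 25 higher and 44 lower, or 6.51% against 8.56% of all tested genes. The share called was then the third lowest of 41 arms, and the share at an unadjusted p below 0.05 had rank 7 from the lowest.

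Chosen by the same rule, 3 of the 4 members named here are among those above. Traes_3DS_D232D9685 was higher in drought LRM than in drought water leaves by a log2 change of 2.13 ± 0.44 (SE; adjusted p = 0.00942 by edgeR), with 130, 88.9 and 77.0 CPM against 40.2, 21.7 and 5.94 CPM. Traes_3DS_072E3F246 was lower, with 1.99, 1.72 and 3.15 CPM in drought LRM leaves, against 5.35, 6.88 and 7.33 CPM in drought water leaves, and its log2 change was -1.47 ± 0.20 (SE; adjusted p = 0.00124 by edgeR). Traes_3DS_5FA3D5EF4 was also lower, with 15.8, 12.2 and 12.8 CPM in drought LRM leaves, against 27.2, 25.3 and 46.7 CPM in drought water leaves, and its log2 change was -1.27 ± 0.24 (SE; adjusted p = 0.00587 by edgeR). In these genes the groups did not overlap.

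Traes_3DS_2B3546466 had the largest rise of the members so chosen. It had 17.1, 225 and 29.6 CPM in drought LRM leaves, against 3.42, 2.63 and 2.67 CPM in drought water leaves, a log2 change of 4.94 ± 1.20 (SE; adjusted p = 0.0213 by edgeR). The groups did not overlap, but library 2 of the drought LRM group was far above the other two, and the gene was also high in irrigated LRM library 1 (25.5 CPM) and irrigated water library 1 (36.7 CPM), against 2.58 to 4.33 CPM in the other irrigated libraries. These are the 3 libraries set apart above. Without drought LRM library 2 the log2 change was 3.02 (edgeR adjusted p = 0.0883). The adjusted p was 0.0543, 0.0893 and 0.101 by edgeR on leaving out drought water library 1, 2 or 3 alone. Without drought LRM library 2, irrigated LRM library 1 and irrigated water library 1 together the log2 change was 2.999 (edgeR adjusted p = 0.000602). The part that the shared co-varying genes play in this call was not tested.

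**Figure D4:**
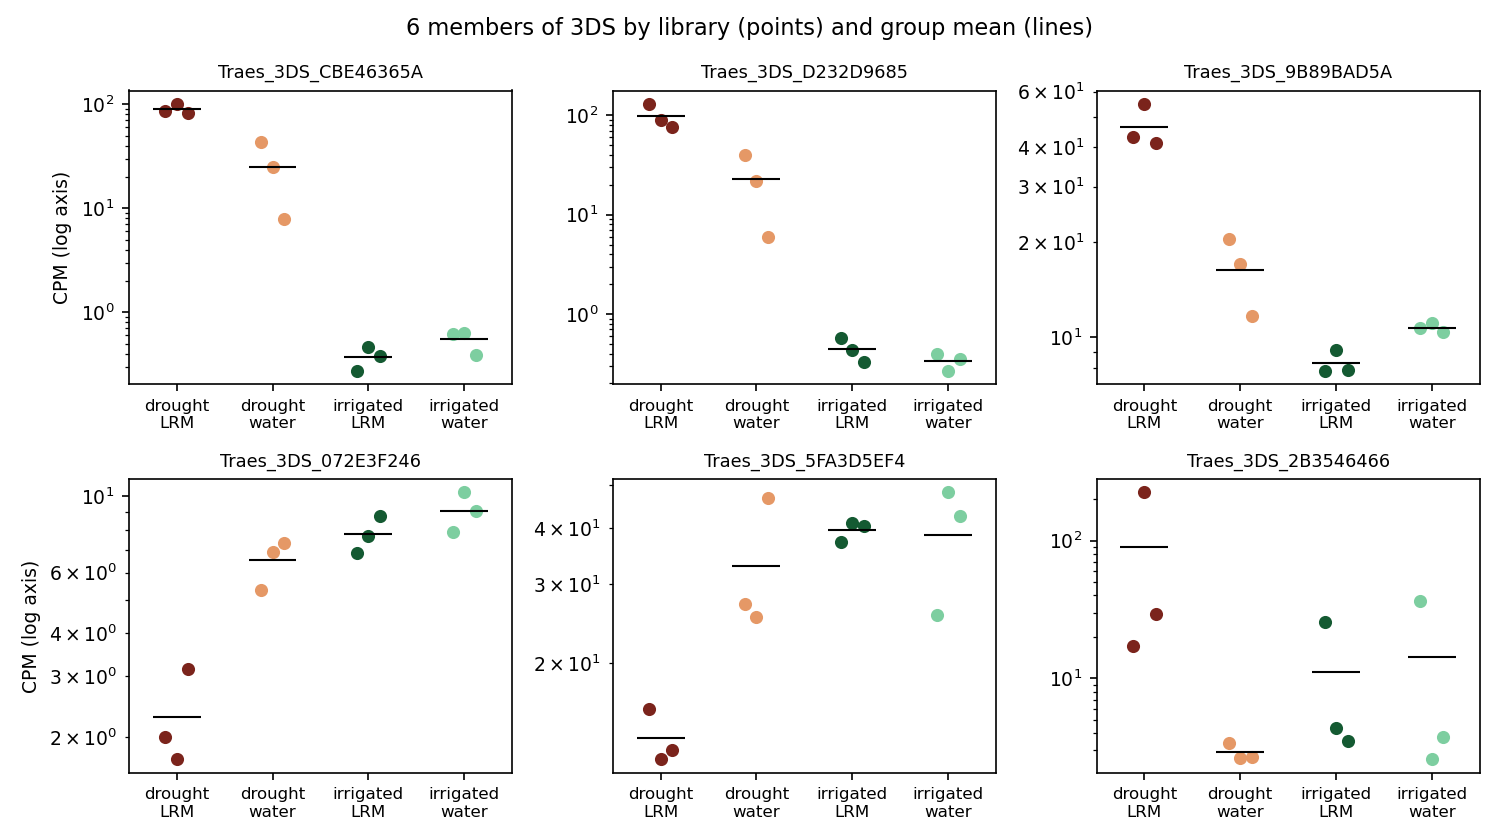
CPM of 6 members (log axis) in the 12 libraries, with points for libraries and lines for group means, groups drought LRM, drought water, irrigated LRM and irrigated water from left to right. Traes_3DS_CBE46365A and Traes_3DS_D232D9685 sit below 1 CPM in all irrigated libraries, and Traes_3DS_2B3546466 is highest in drought LRM library 2 at 225 CPM.

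LRM against water spray under full irrigation gave no called member. This comparison shares the irrigated LRM libraries with the one that chose the arm. By edgeR 0 of 1058 members and 0% of all tested genes were called, and the smallest adjusted p of a member was 0.319. At an unadjusted p below 0.05, 86 members (8.13%) passed, against 8.7% of all tested genes, 9.19% in 3AS and 8.89% in 3B, and this was rank 11 of 41 arms from the lowest. The groups of 16.1% of members did not overlap, against 16.1% of all tested genes. The limma fits also called 0 members. By DESeq2, 2 members (0.189%) were called, against 0.369% of all tested genes, and they are named here after their values were seen. Traes_3DS_C917FF785 was higher in irrigated LRM leaves, at 444 ± 61 CPM, against 329 ± 23 CPM in irrigated water leaves (SD, n = 3; DESeq2 adjusted p = 0.00829, edgeR adjusted p = 0.393). Traes_3DS_023551079 was lower, at 9.41 ± 1.66 CPM in irrigated LRM leaves, against 13.0 ± 0.470 CPM in irrigated water leaves (SD, n = 3; DESeq2 adjusted p = 0.0437, edgeR adjusted p = 0.393).

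By edgeR the smallest p of a higher member was that of Traes_3DS_652B75B8A, with 6.96, 6.42 and 7.18 CPM in irrigated LRM leaves, against 3.80, 4.72 and 3.43 CPM in irrigated water leaves, a log2 difference of 0.78 (edgeR adjusted p = 0.319). The smallest of a lower member was that of Traes_3DS_33CBCB737, with 0.873, 1.06 and 1.03 CPM in irrigated LRM leaves, against 2.21, 1.90 and 1.94 CPM in irrigated water leaves, a log2 difference of -1.03 (edgeR adjusted p = 0.393). Neither passed the threshold although their groups did not overlap.

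The interaction asks whether the drought response differed between sprays. It includes both groups of the comparison that chose the arm, so it is not an independent look either. By edgeR 4 members were called, 1 with a positive interaction and 3 with a negative one, which is 0.378% against a background of 0.851% (0.467% higher and 0.384% lower), 0.563% in 3AS and 0.762% in 3B. At an unadjusted p below 0.05, 86 members (8.13%) passed, against 12.9% of all tested genes, the lowest share of 41 arms. Traes_3DS_9B89BAD5A had 43.0, 54.9 and 41.1 CPM in drought LRM leaves, against 7.83, 9.13 and 7.89 CPM in irrigated LRM leaves. In water-sprayed plants it had 20.4, 17.1 and 11.7 CPM under drought, against 10.7, 11.1 and 10.4 CPM under full irrigation. The drought groups did not overlap their irrigated groups, and the log2 response was larger under LRM by 1.87 ± 0.24 (SE; adjusted p = 0.0101 by edgeR).

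In the 3 members with a negative interaction the log2 drought response was the more negative one under LRM, and these calls were less firm. Traes_3DS_B6D1ED3A9 had 3.26, 3.71 and 3.85 CPM in drought LRM leaves, against 9.17, 9.26 and 9.30 CPM in irrigated LRM leaves, and 5.18, 7.13 and 7.84 CPM in drought water leaves, against 7.66, 8.63 and 8.24 CPM in irrigated water leaves. The LRM-sprayed groups stood apart and the water-sprayed groups overlapped, with an interaction of -1.08 ± 0.20 log2 (SE; adjusted p = 0.0335 by edgeR). Traes_3DS_57C9F64DC had 5.73, 5.91 and 3.99 CPM in drought LRM leaves, against 11.3, 11.2 and 10.9 CPM in irrigated LRM leaves, and 7.61, 7.43 and 8.85 CPM in drought water leaves, against 7.12, 9.22 and 9.24 CPM in irrigated water leaves, with an interaction of -1.01 ± 0.21 log2 (SE; adjusted p = 0.0444 by edgeR). Traes_3DS_814B6BB9A, named because the count is small, had 3.79 ± 0.770 CPM in drought LRM leaves, against 6.92 ± 0.152 CPM in irrigated LRM leaves, and 5.75 ± 0.345 CPM in drought water leaves, against 5.72 ± 0.111 CPM in irrigated water leaves (SD, n = 3), with an interaction of -0.91 ± 0.19 log2 (SE; adjusted p = 0.0394 by edgeR). The water-sprayed groups of both genes overlapped. These calls were lost in 14, 17 and 16 of 24 alternatives for Traes_3DS_B6D1ED3A9, Traes_3DS_57C9F64DC and Traes_3DS_814B6BB9A. Of the single libraries, leaving out any lost the first call except drought LRM library 3 and drought water library 1, the second except drought water library 1, and the last except drought LRM library 2 and drought water library 1. The counts over all genes moved as well. Without drought water library 1, 11 members (1.03%) were called, against 2.19% of all tested genes, and without drought LRM library 3, 7 members (0.655%), against 0.551%. Without any other single library 1 or 2 members were called, or 0.0936% to 0.188%, against 0.0342% to 0.384% of all tested genes. Without the 3 libraries set apart above 0 were called by edgeR, against 0.0206% of all tested genes, and the share in 3DS was below that of all genes in 19 of 24 alternatives.

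**Figure D5:**
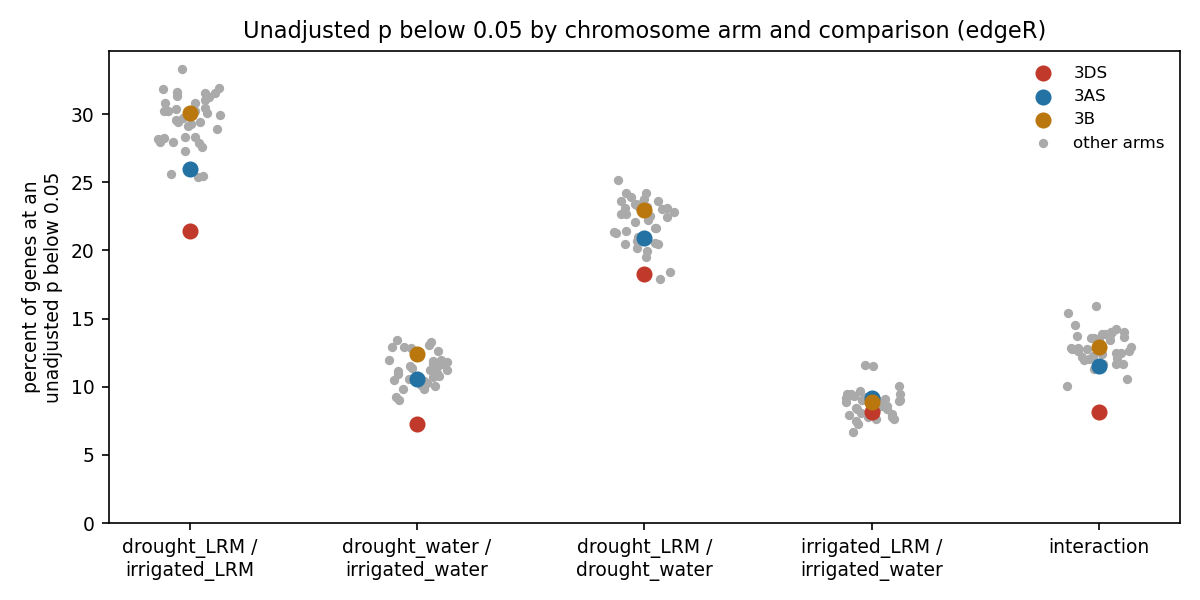
Percent of genes at an unadjusted p below 0.05 by edgeR in each of 5 comparisons (horizontal axis), with 1 point per arm and 3DS, 3AS and 3B in color. 3DS has the lowest point in drought with LRM (21.5%), drought with water (7.28%) and the interaction (8.13%), and lies among the others for LRM against water under full irrigation.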

How the data were processed

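Leaf polyA RNA of 12 libraries in 4 groups of 3 was compared, with the groups taken from the sample titles. The deposited whole-number counts per gene were used for all tests, and the deposited FPKM values for level per length. Among the deposited FPKM values, 256 were 1000 times too high for their counts and were divided by 1000. With that repair, 99.6% of the values with more than 20 counts agreed within 5% with the lengths implied by counts and FPKM. FastQC, HISAT2, StringTie and DESeq2 are listed in the submitters' processing notes, which give neither version nor role. Genome build, annotation, strand, read layout and the handling of multi-mapping reads were not given in the sources used here.

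Counts were filtered (filterByExpr by group), scaled by TMM and tested in 1 fit of 4 group means with edgeR 4.0.16 (glmQLFit, glmQLFTest; R 4.3.3), with Benjamini-Hochberg adjustment over all 57226 tested genes and calls below 0.05. The code was tested on simulated data. DESeq2 1.42.0 and limma 3.58.1 on log2(FPKM + 1) or log2(FPKM + 0.1) were alternatives, beside other scalings, filters, a replicate block and leaving out libraries. CPM values are scaled by TMM, and a standard error is the absolute log2 change over the square root of the F statistic. Classes of level, variability and length have equal numbers of all tested genes, and reweighted shares weight each class by its share in the other set. Named in each comparison were the 2 called members with the largest log2 change each way provided that the group with the higher level reached a mean of 5 CPM and, except for the interaction, without overlap between groups. The members and lists were chosen with earlier results of these data known.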

Additional observations from a re-analysis of the deposited data

Results flagged for a closer look

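The drought response of 4 members differed between the sprays by edgeR's test of the interaction (log2 response to drought with LRM minus that with water spray). It was 1.87 for Traes_3DS_9B89BAD5A, -1.08 for Traes_3DS_B6D1ED3A9, -1.01 for Traes_3DS_57C9F64DC and -0.91 for Traes_3DS_814B6BB9A. Traes_3DS_9B89BAD5A was called in 23 of 24 alternatives, and its call was lost without drought LRM library 2, irrigated LRM library 1 and irrigated water library 1 together (edgeR adjusted p = 0.0805).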

How the results depend on the processing

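In drought with LRM 93 to 132 members were called over 13 alternatives and 72 to 116 on leaving out 1 library, and 3DS had the lowest share of 41 arms in all 25. In drought with water the counts were 3 to 6 and 3 to 5, in LRM against water under drought 28 to 69 and 15 to 57, under full irrigation 0 to 2 and 0 to 0, and for the interaction 0 to 16 and 1 to 11. The count under drought was 28 when only the 2 groups compared were fitted, or 2.77% against 5.92% of all tested genes. By DESeq2 the count was 2 (0.189%) under full irrigation and 16 (1.51%) for the interaction, against 0.369% and 3.02% of all tested genes. The interaction count was 7 (0.655%) with no low-count filter, against 0.870% of all genes with any count. It was 0 without irrigated water library 1, irrigated LRM library 1 and drought LRM library 2. By classes of FPKM the reweighted share was 10.8% in place of 13.5%. By limma on log2(FPKM + 1), 96 members were higher and 36 lower in drought with LRM. In drought with water the share in 3DS was below that of all genes in 16 of 25 alternatives, and in LRM against water under drought in 25 of 25. Of the values of named members 452 kept their direction and side of the threshold, 65 lost a call, 2 gained one and 0 reversed. The causes were not tested.

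The replicate numbers of the labels gave no clear pairing of the libraries, although a weak pairing could be missed. Deviations of same-numbered libraries had correlations from -0.12 to 0.148, and 3 of 18 were over 0.1. Those of differently numbered libraries ran from -0.232 to 0.163, and 3 of 36 were over 0.1. With the replicate number as a block 107, 4, 62, 0 and 6 members were called, in the order of comparisons above. The shares were 10.1%, 0.378%, 5.86%, 0% and 0.567%, against 16.9%, 0.879%, 9.03%, 0% and 1.42% of all tested genes.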
